A study of Mus musculus with 24 samples.

Results

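The genes described here encode the proteins of the cytosolic ribosome. They were chosen by name, as protein-coding genes whose symbol starts with Rpl or Rps and a number, together with Rplp0, Rplp1, Rplp2 and Rpsa, leaving out pseudogenes and the Rps6k kinases. There were 86 such genes among the 52178 genes of the deposited table, of which 46 encode proteins of the large subunit (60S core), 31 encode proteins of the small subunit (40S core), and 9 are paralogues or other genes that carry a ribosomal protein symbol. Among these, 84 passed the filter on low counts, including all 77 core genes, while Rpl3l and Rpl10l did not.

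The ribosome is built in the nucleolus and cytoplasm from ribosomal RNA and a fixed set of proteins, each of which is usually present as a single copy per subunit, so cells make these proteins in proportion to each other. Their messenger RNAs belong to the TOP class, which starts with a run of pyrimidine bases (C or T) and whose translation is regulated by the kinase mTOR. Mammalian genomes also carry many processed copies of these genes, which complicates the assignment of short reads.

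RNA was sequenced from murine hip caps and metatarsals, cultured as cartilage explants, to compare the effects of hydrostatic pressure on articular and growth plate cartilage. Hip caps are the femoral heads of male C57/BL6 mice (C57/BL6J in the study's methods) of 4 weeks of age, and 2 hip caps of 1 mouse were pooled per sample. Metatarsals came from embryos of the same strain at embryonic day 15, with 6 bones pooled per sample and the sex of the embryos not given. All explants were cultured for 24 hours, held for 1 hour without added pressure (control), at 5 MPa (within the physiological range) or at 50 MPa (injurious), and cultured for another 24 hours. Each of the 6 groups had 4 libraries, and the 22 libraries tested by the study were used here, without hip cap control replicate 4 and hip cap 50 MPa replicate 2.

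Total counts ranged from 4185560 to 25104500 per library. Sequencing runs were taken from a colour strip in the paper and are therefore uncertain. This reading puts 9 of the 24 libraries in run 1, a split that differs from the number of libraries per sequencing kit in the study's methods, and the run term and all values within a run rest on it. By this reading the 3 hip cap controls and the 3 hip caps at 50 MPa belonged to run 1, the 4 hip caps at 5 MPa belonged to run 2, and the metatarsals belonged to run 2 except for control replicate 1 and 50 MPa replicate 4. Hip cap control replicate 3, all 3 hip caps at 50 MPa and metatarsal 50 MPa replicate 4 were unstranded libraries per the labels. The summed level of 8 chondrocyte markers (Col2a1, Acan and others) was 19181 to 67700 CPM in hip caps and 1337 to 3714 CPM in metatarsals, and that of 8 skeletal muscle markers was 17.5 to 48.8 CPM in hip caps and 420.3 to 2423 CPM in metatarsals. CPM denotes counts divided by the library total and scaled by TMM factors. In such bulk samples fewer cells of a type and less RNA per cell cannot be told apart.

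Several of these genes share almost their whole coding sequence with a processed copy elsewhere in the genome, and the following stretches are shown because the results below turn on them. Coding sequences were taken from the GENCODE M21 annotation. Rps27a, which encodes a fusion of ubiquitin and a 40S protein, differs from its copy Gm8430 at 1 of 468 coding bases, which is the capital letter in coding bases 41 to 100.
Rps27a: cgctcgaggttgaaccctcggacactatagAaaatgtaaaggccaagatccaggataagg
Gm8430: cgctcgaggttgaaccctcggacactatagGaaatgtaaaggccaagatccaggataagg
Rps13, a 40S core protein, differs from Rps13-ps1 at 2 of 453 coding bases, both of which lie in coding bases 390 to 449 and are capitals here.
Rps13: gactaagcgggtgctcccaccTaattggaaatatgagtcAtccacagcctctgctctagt
Rps13-ps1: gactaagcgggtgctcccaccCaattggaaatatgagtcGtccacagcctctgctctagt
The 891 coding bases of Rpl5 and its copy Gm15500 did not differ at any base, nor did the 408 coding bases of Rpl27 and its copy Gm11518. Reads from these coding sequences that hold none of the differing bases therefore cannot be assigned to the gene or the copy with certainty.

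The pyrimidine run of the TOP class was looked for at the annotated transcription start (RefSeq, GRCm38.p6). The window of 30 bases around the start, 15 on each side and on the strand of the gene, held a run of at least 6 C or T bases in 39 of the 66 ribosomal protein genes that the table of starts holds (59.1%), against 8833 of all 27025 genes (32.7%). The runs of 5 genes named below are in capitals.
Rplp2 (chr7:141447636-141447665, plus strand): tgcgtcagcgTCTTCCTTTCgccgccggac
Rpl15 (chr14:18270972-18271001, minus strand): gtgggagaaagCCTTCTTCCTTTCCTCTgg
Rpl35 (chr2:39005117-39005146, minus strand): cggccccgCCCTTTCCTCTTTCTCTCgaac
Rpl38 (chr11:114668565-114668594, plus strand): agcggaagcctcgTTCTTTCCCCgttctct
Rps27l (chr9:66946071-66946100, plus strand): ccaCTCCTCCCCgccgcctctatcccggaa
These runs were 9 bases long in Rps27l, 10 bases in Rplp2 and Rpl38, 17 bases in Rpl15 and 18 bases in Rpl35. The run of Rps27l begins at base -12 from the annotated start and ends before it, so it lies outside the annotated transcript. The other runs shown span the start. The counts above take a run anywhere in the window, also one wholly before the start. A run describes the sequence only, since no start was measured here.

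Ribosomal protein genes took between 1.20% and 3.17% of all counts in a library. In hip caps their share was 1.49% ± 0.34 (SD, n = 3) in controls, 1.79% ± 0.33 (n = 4) at 5 MPa and 1.55% ± 0.26 (n = 3) at 50 MPa. In metatarsals it was 1.95% ± 0.19 in controls, 2.85% ± 0.31 at 5 MPa and 2.86% ± 0.36 at 50 MPa (n = 4 each). All 8 pressurised metatarsal libraries (2.37% to 3.17%) lay above the 4 control libraries (1.76% to 2.18%), whereas the hip cap groups overlapped. In the same metatarsal libraries protein-coding genes took 50.7% to 57.8% of all counts in controls, 56.3% to 72.4% at 5 MPa and 57.0% to 70.6% at 50 MPa, and these ranges overlapped. As a share of the protein-coding counts, ribosomal protein genes took 3.60% ± 0.34 in metatarsal controls, 4.38% ± 0.24 at 5 MPa and 4.44% ± 0.73 at 50 MPa. The corresponding shares of hip caps were 3.82% ± 0.32, 3.32% ± 0.31 and 3.98% ± 1.31. The highest library was hip cap 50 MPa replicate 4 at 5.49% of protein-coding counts. The ratio of counts on 60S genes to counts on 40S genes stayed between 1.32 and 1.49 in the 22 libraries.

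**Figure D1:**
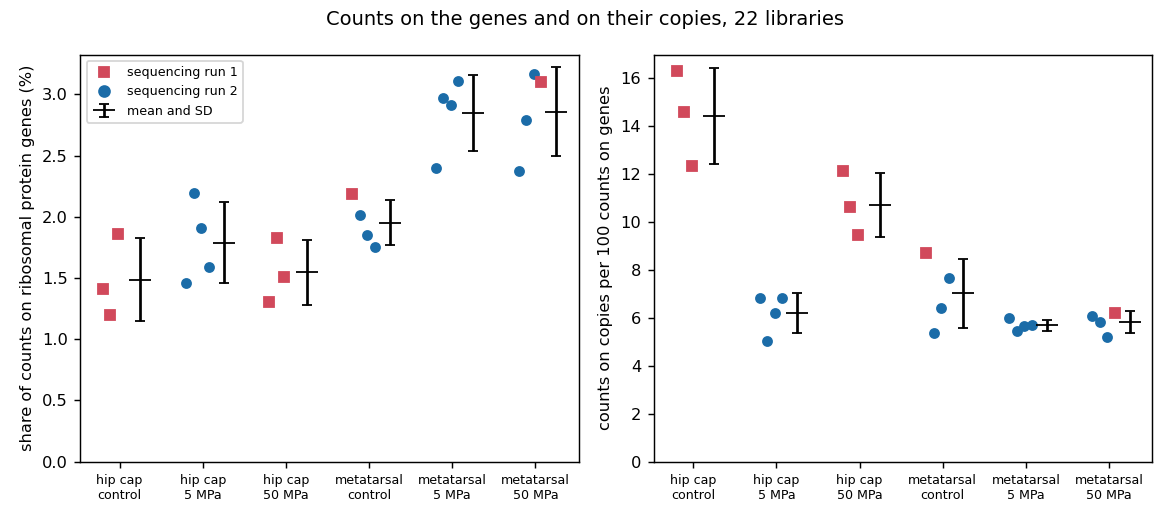
Left, percent of all counts on ribosomal protein genes in each of 22 libraries. Right, counts on copies of these genes per 100 counts on the genes. Points are libraries, coloured by sequencing run, and bars show the mean and SD of each group. The 8 pressurised metatarsal libraries lie above their controls on the left, and the hip caps of run 1 hold the highest values on the right.

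Levels per kilobase of transcript, scaled to the same total in every library, differed 22.1-fold between the highest and the lowest core gene. The paper reports partly degraded RNA, with integrity values below the ideal minimum, and libraries of total RNA depleted of ribosomal RNA. The part of this in the levels was not tested. The range also rests on the transcript length taken for each gene and on counts that lie on copies. Rpl41, the shortest protein of the large subunit, had the highest level (2608 ± 584, SD over 22 libraries), followed by Rps12 (2111 ± 621), the stalk protein Rplp1 (1938 ± 391), Rpl23a (1853 ± 458) and Rps15 (1837 ± 404). Neighbours in this order differed by less than their SD. The lowest levels were those of Rps20 (118 ± 33.2), Rpl12 (161 ± 71.8), Rpl5 (195 ± 112), Rpl35 (297 ± 112) and Rpl37 (349 ± 53.4), where neighbours again differed by less than the larger SD. The transcript of Rps20 used for its length has 3706 bases, the longest of the set. Rpl12 and Rpl5 were also the genes with the largest part of their counts on copies.

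Copies were counted in the same table. There were 303 genes, each annotated or named as a pseudogene, that shared at least 50% of their 31-base words with a ribosomal protein gene. Of these, 194 had no pseudogene symbol, and the 303 held 6.57% of the counts of genes and copies together. Coding genes without a pseudogene symbol were not counted as copies. Over the 22 libraries together the copies held more than 10% of these counts for 12 genes. For Rpl12, which lies at the base of the stalk, 77.5% of the counts were on copies, and for Rpl5, which carries 5S ribosomal RNA into the large subunit, 71.0%. The shares were 45.6% for Rps23, 37.9% for Rpl27a, 35.6% for Rpl10, 20.5% for Rpl28 and for Rpl21, 15.7% for Rpl31, 14.0% for Rps16, 13.4% for Rpl36a, 13.0% for Rpl27 and 11.0% for Rps20. Pseudogenes named after their gene took the largest part for Rps23 (45.4%), Rpl10 (35.5%), Rpl28 (20.8%), Rpl31 (15.8%) and Rpl36a (14.5%). Copies received 9.44 to 16.3 counts per 100 counts on the genes in the 6 hip cap libraries of run 1 and 5.04 to 6.82 in the 4 hip cap libraries of run 2. In metatarsals the values were 6.21 and 8.68 in the libraries of run 1 and 5.19 to 7.64 in the 10 libraries of run 2. Run and group cannot be told apart in hip caps, since no hip cap group used here mixes runs.

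The comparison of control explants asked how articular and growth plate cartilage differ without pressure. Of the 84 ribosomal protein genes tested, hip caps had higher counts of 13 and lower counts of 6 than metatarsals (edgeR, adjusted p at most 0.05), against 14.6% and 16.4% of all 21283 genes tested, or 31% in either direction. The median log2 fold change was 0.26 for ribosomal protein genes and -0.08 for all genes. The groups did not overlap for 33 genes that were higher and 5 that were lower in hip caps, against 19.6% and 22.8% of all genes. These counts of separated groups rest on CPM without a run term. Among 60S core genes 8 were higher and 4 lower, and among 40S core genes 3 were higher and 2 lower.

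Among the genes called, Rpl19, Rpsa and Rpl36 had the largest differences in favour of hip caps. Rpl19, a protein of the large subunit with an extension that bridges the subunits (ENSMUSG00000017404, GRCm38 chr11:98026710-98030492, plus strand), had 923, 404 and 999 CPM in hip cap control replicates 1, 2 and 3, and 249, 227, 225 and 230.1 CPM in the 4 metatarsal controls. Its log2 fold change was 1.43 ± 0.27 (SE, adjusted p = 0.00044). All 3 hip cap values lay above the metatarsal values, and replicate 2 had less than the other two. Rpsa, a 40S protein also known as a laminin receptor (ENSMUSG00000032518, chr9:120127689-120132369, plus strand), showed the same order, with 1601, 795 and 1644 CPM in hip caps and 437 to 511 CPM in metatarsals (log2 fold change 1.31 ± 0.26, adjusted p = 0.00062). Rpl36 had 315, 169.7 and 355 CPM in hip caps and 86.8 to 102 CPM in metatarsals (1.27 ± 0.31, adjusted p = 0.0042). The other genes that were higher were Rplp0, Rplp2, Rpl26, Rpl11, Rpl4, Rpl3, Rps9, Rps3a1, Rpl7l1 and Rps19bp1, with log2 fold changes from 0.58 (Rpl7l1) to 1.05 (Rplp0).

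Rps27a (ENSMUSG00000020460, chr11:29545846-29548109, minus strand) had the largest difference in the other direction. It had 8.95, 128 and 12.5 CPM in hip cap controls and 239, 210.2, 203 and 184 CPM in metatarsal controls, with a log2 fold change of -2.84 ± 0.83 (adjusted p = 0.017). The groups did not overlap, and replicate 2 was the highest of the hip cap controls. Its copies received 220, 139 and 239 CPM in the same hip cap libraries and at most 13.4 CPM in the metatarsal controls, so that gene and copies together had 249 ± 19.0 CPM in hip caps (n = 3) and 213 ± 28.5 CPM in metatarsals (n = 4). When each gene was summed with its copies, the log2 fold change of Rps27a was -0.09 (adjusted p = 0.82).

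Rpl5 had 19.0, 90.9 and 20.3 CPM in hip cap controls against 130.2, 175, 99.3 and 75.1 CPM in metatarsal controls (log2 fold change -1.63 ± 0.53, adjusted p = 0.028). Its log2 fold change was -0.09 after summing with copies (adjusted p = 0.77). Rpl27 went from -1.45 ± 0.46 (adjusted p = 0.025) to -0.29 (adjusted p = 0.42). Rps13 was called lower in hip caps (-0.59 ± 0.20, adjusted p = 0.028) and called higher when summed with its copies (0.62, adjusted p = 0.036). Rpl15 was at -0.97 ± 0.30 (adjusted p = 0.018) and then at -0.71 (adjusted p = 0.066). By contrast, Rpl35 was at -1.29 ± 0.39 (adjusted p = 0.018) and remained at -1.23 (adjusted p = 0.019). It had 36.9, 83.9 and 26.6 CPM in hip caps and 87.9 to 104 CPM in metatarsals, and the groups did not overlap.

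With copies included, 20 genes were called as higher in hip caps and 1 (Rpl35) as lower, and 15 of these 21 genes were among the 19 called without copies. The counts of genes called also depended on single libraries, as 4 genes were called without metatarsal control replicate 1 (the control library of run 1), 38 without hip cap 50 MPa replicate 4, and 9, 32 and 10 without hip cap control replicates 1, 2 and 3. The share of all genes called in these fits is not given here. With all 24 libraries 9 genes were called, each of them higher in hip caps. Scaled with all 24 libraries, Rps27a had 285 CPM in hip cap control replicate 4, which the study left out and which belonged to run 2. All 8 chondrocyte markers were higher and 7 of 8 skeletal muscle markers were lower in hip cap controls, and the part of this in the values of ribosomal protein genes was not tested.

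**Figure D2:**
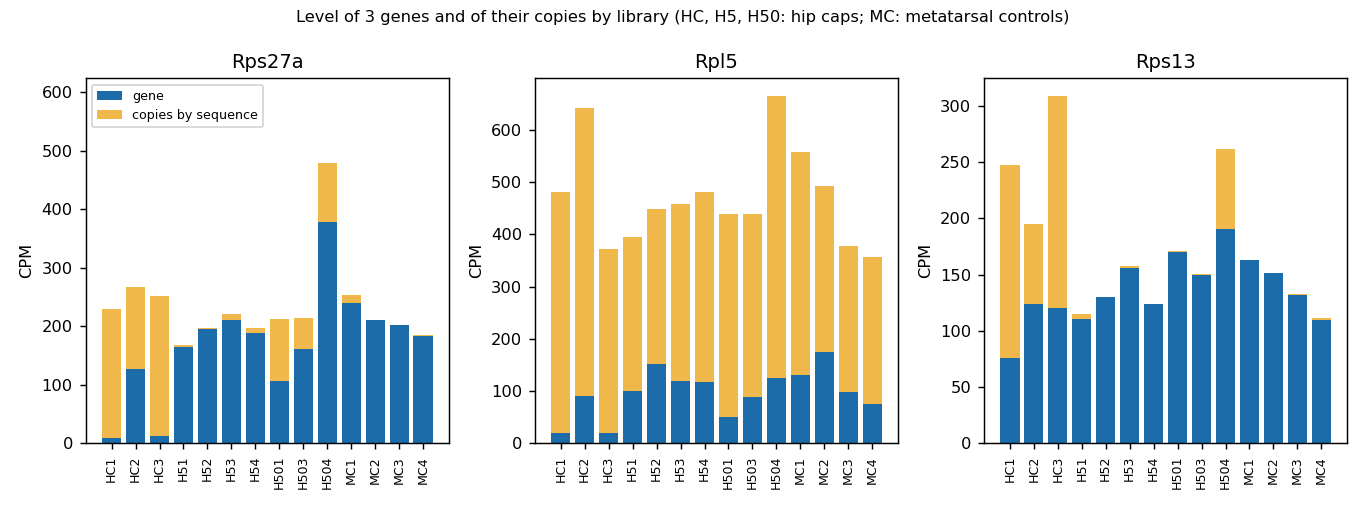
CPM of Rps27a, Rpl5 and Rps13 (blue) stacked with the CPM of their copies (yellow) in hip cap libraries (HC control, H5 at 5 MPa, H50 at 50 MPa) and metatarsal controls (MC), one bar per library. For Rps27a the blue part is smallest in hip cap control replicates 1 and 3 (8.95 and 12.5 CPM), while the whole bars of the controls are 229 to 266 CPM in hip caps and 186 to 253 CPM in metatarsals.

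The other gene groups were counted in the same comparison. Of 78 mitochondrial ribosomal proteins 15 were higher and 8 lower in hip caps, with Mrps28 at the top (1.52). Of 40 ribosome assembly factors 5 were higher and 5 lower, from Ltv1 (0.90), which assembles the small subunit, to Fbl (-1.15), which methylates ribosomal RNA. Of 21 other TOP messenger RNAs, mainly elongation and initiation factors, Eef1d was higher (1.14) and 5 were lower (Pabpc1, Npm1, Nap1l1, Hnrnpa1 and Eif3e). Of 18 genes of mTOR and the S6 kinases 2 were higher and 4 were lower. Fau, which encodes a 40S protein as a fusion and falls outside the naming rule, had a log2 fold change of 0.05 and was not called.

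In hip caps at 5 MPa no ribosomal protein gene was called against control by edgeR, and DESeq2 called 6 (Rpl19, Rpl27, Rpl35, Rpl5, Rps27a and Rpsa). The share of all genes called by DESeq2 is not given here. In edgeR 22 of the 84 genes tested had an unadjusted p below 0.05, against 3312 of all 21283 genes. Among all genes edgeR called 0.0235% (0.0094% higher and 0.0141% lower). The median log2 fold change was 0.04 for ribosomal protein genes and 0.01 for all genes, with a range from -1.14 (Rpl36 and Rpl19) to 2.96 (Rps27a). The groups did not overlap for 7 genes that were higher at 5 MPa and 20 that were lower, against 8.4% and 7.85% of all genes. Since the hip caps at 5 MPa were sequenced in run 2 and the controls in run 1, these counts of separated groups cannot be told apart from the run. The log2 fold changes rest on a run term that was estimated from metatarsals, as no run holds both hip cap groups.

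Rps27a had 164, 196, 210.5 and 189 CPM at 5 MPa, above all 3 controls, with a log2 fold change of 2.96 ± 0.95 (adjusted p = 0.18). It was 0.08 after summing with copies. Rpl27 (1.84 ± 0.54) went to 0.68 and Rpl5 (1.78 ± 0.62) to 0.24 in the same way. At the lower end Rpl19 had 251, 268, 320.1 and 274 CPM, below the 404 to 999 CPM of the controls (log2 fold change -1.14 ± 0.31, adjusted p = 0.13). Rpl36 (-1.14 ± 0.35) had 81.7 to 126 CPM, and Rpl17 (-1.04 ± 0.43), which lies at the exit of the peptide tunnel, completed the lowest 3. Without hip cap control replicate 2, 12 ribosomal protein genes were called (the share of all genes in that fit is not given here). Of the 21 other TOP messenger RNAs, the 40 assembly factors, the 18 genes of mTOR and the S6 kinases and the 78 mitochondrial ribosomal proteins, 0 were called, with 5, 8, 4 and 18 at an unadjusted p below 0.05, and their highest values were 1.33 (Pabpc1), 1.76 (Nop10), 1.24 (Rps6ka3) and 1.90 (Mrps36).

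In hip caps at 50 MPa 3 ribosomal protein genes were called against the same controls, with Rps27l higher and Rpsa and Rpl19 lower, against 3.51% and 1.97% of all genes, or 5.48% in either direction. All 3 hip caps at 50 MPa were unstranded libraries, while control replicates 1 and 2 were stranded and replicate 3 was unstranded. Pressure and library type are therefore largely confounded here, and the log2 fold changes rest on a library type term estimated from few libraries. In edgeR 28 of the 84 genes tested had an unadjusted p below 0.05, against 4951 of all 21283 genes. DESeq2 called 14 ribosomal protein genes, and the share of all genes that it called is not given here. The median log2 fold change was -0.04, and 0.02 for all genes. The groups did not overlap for 3 genes (Rps27l, Rps13 and Rpl39l), each with higher CPM at 50 MPa, against 8.19% of all genes, and for 0 genes that were lower, against 7.56% of all genes. Rps13 with its copies had 251 ± 57.2 CPM in controls and 194 ± 58.9 CPM at 50 MPa (n = 3 each), the opposite order, with a log2 fold change of -0.55 (adjusted p = 0.14).

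Rps27l, a paralogue of Rps27 that is known as a target of p53 (ENSMUSG00000036781, chr9:66946086-66949516, plus strand), had 33.9, 34.5 and 47.9 CPM at 50 MPa and 14.7, 27.5 and 16.6 CPM in controls. Its log2 fold change was 1.15 ± 0.33 (adjusted p = 0.045). The lowest library at 50 MPa lay above the highest control used. Hip cap control replicate 4, however, had 74.99 CPM, and with all 24 libraries the log2 fold change was 0.15 (adjusted p = 0.90). No copy of Rps27l was found by shared words.

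Rpsa had 741, 627 and 887 CPM at 50 MPa against 1601, 795 and 1644 CPM in controls (log2 fold change -1.23 ± 0.26, adjusted p = 0.015). Rpl19 had 380.4, 310.1 and 526 CPM against 923, 404 and 999 CPM (-1.29 ± 0.27, adjusted p = 0.015). For both genes the groups overlapped through hip cap control replicate 2. The hip cap libraries used at 0 and 50 MPa all belonged to run 1. They were also fitted alone, without the other groups and without a library type term. In that fit the log2 fold change was -0.84 for Rpsa (adjusted p = 0.42) and -0.93 for Rpl19 (adjusted p = 0.42), and for Rps27l it was 0.99 (adjusted p = 0.32). Without hip cap control replicate 3 none of the 3 genes was called by edgeR. In the same libraries 2 of 8 chondrocyte markers (Comp and Sox9) were lower at 50 MPa, and their summed level was 40841 to 67700 CPM in controls and 28432 to 32140 CPM at 50 MPa. Of the other markers Ttn of muscle (1.95) and Cd68 of macrophages (1.76) were called higher and Sp7 of osteoblasts (-1.08) lower. Each is a single gene, and other genes on its list had values of the opposite sign. Summed, muscle markers had 21.4 to 24.0 CPM in controls and 30.7 to 48.8 CPM at 50 MPa. Osteoblast markers had 1058 to 2037 and 572 to 751 CPM, and osteoclast markers 313 to 499 and 520 to 1644 CPM. Macrophage markers overlapped (103 to 306 and 154 to 302 CPM). The part of these cell types in the values of ribosomal protein genes was not tested. Rpl36 was next in order (-0.96 ± 0.31, adjusted p = 0.073), with 164, 114 and 286 CPM at 50 MPa and overlapping groups. Rpl14, a 60S protein, was just above the threshold (-0.73 ± 0.21) with groups that overlapped.

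The largest positive values belonged to Rps27a, Rps27 and Rpl5, which edgeR did not call and DESeq2 called. Rps27a was at 3.31 ± 1.06 (adjusted p = 0.077) and at 0.22 after summing with copies. Rps27 was at 2.56 ± 1.40, with 13.1, 60.8 and 235 CPM at 50 MPa and 151, 282 and 6.18 CPM in controls. Its group means, 103 ± 117 CPM at 50 MPa and 147 ± 138 CPM in controls (n = 3 each), lie in the opposite order to the fitted value, which includes the run and library type terms. Rps27rt, a retrogene related to Rps27, had 196, 118 and 196 CPM at 50 MPa and 228, 39.9 and 243 CPM in controls, so that the control library with the lowest Rps27 had the highest Rps27rt. Rpl5 was at 1.84 ± 0.63 and at 0.39 after summing with copies.

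A single library set much of the spread at 50 MPa. The summed level of ribosomal protein genes was 35244 CPM in replicate 4, and 19088 and 17269 CPM in replicates 1 and 3, against 22095 to 26561 CPM in controls. Replicate 4 also had the lowest share of protein-coding counts (27.5%). Without replicate 4 of 50 MPa 26 ribosomal protein genes were called, each of them lower, and the median log2 fold change of all 84 was -0.42. There were 18 genes called without hip cap control replicate 2, 10 without hip cap 5 MPa replicate 3, and 5 each without hip cap control replicate 1, hip cap 5 MPa replicate 4 or hip cap 50 MPa replicate 1. The share of all genes called in these fits is not given here. The counts are therefore no result about ribosomal protein genes alone.

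**Figure D3:**
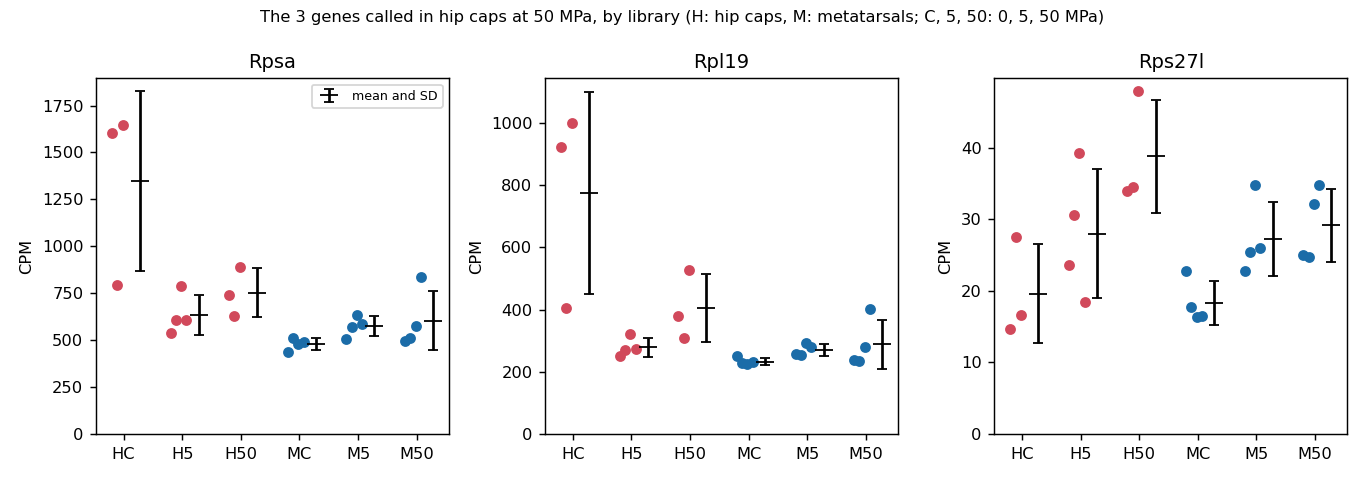
CPM of Rpsa, Rpl19 and Rps27l in each of 22 libraries, by group (HC, H5 and H50, hip caps as controls, at 5 and at 50 MPa; MC, M5 and M50, metatarsals likewise), with the mean and SD. Rpsa and Rpl19 overlap between HC and H50 through control replicate 2 (795 and 404 CPM), and the 3 libraries of H50 lie above the 3 of HC for Rps27l.

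Genes that act on the ribosome were called in both directions in hip caps at 50 MPa. Of the assembly factors 5 were higher and 1 lower, from Nop10 (2.21), a protein of the pseudouridylation complex, to Ubtf (-0.89), a transcription factor of ribosomal RNA genes. Of the genes of mTOR and the S6 kinases Rheb (0.65), Rps6kb1 (0.97), Rps6ka3 (1.43) and Eif4e (1.36) were higher. Of the other TOP messenger RNAs Npm1 (1.12), Nap1l1 (1.02) and Eif3e (1.19) were higher. Among mitochondrial ribosomal proteins 4 were higher and 3 were lower, with Mrps12 at the lower end (-1.16).

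In metatarsals at 5 MPa 82 of the 84 ribosomal protein genes had a positive log2 fold change, with a median of 0.33, while the median of all genes was 0.00. None of them was called by edgeR or DESeq2, nor was any other gene by edgeR (0% of all genes). In edgeR 18 of the 84 had an unadjusted p below 0.05, against 733 of all 21283 genes. The groups did not overlap for 23 genes, each of them higher at 5 MPa, against 1.65% of all genes, and for 0 in the other direction, against 1.24%. The middle of the distribution was narrow, from 0.22 to 0.45, while the median SE of a single gene was 0.22. The median was 0.31 for 60S core genes and 0.35 for 40S core genes, and 45 of 46 and 31 of 31 were positive.

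Rpl36a, a 60S protein, had 104, 82.3, 80.2 and 59.4 CPM in controls and 124, 113, 132 and 124 CPM at 5 MPa. Its log2 fold change was 0.74 ± 0.35 (adjusted p = 1), and its groups did not overlap. Summed with its copies it was at 0.53 (adjusted p = 1), and the groups then overlapped, with 82.8 to 118 CPM in controls and 114 to 133 CPM at 5 MPa. Within run 2, where control replicate 1 falls away, Rpl36a was the single gene called without its copies (0.74, adjusted p = 0.033). Rpl5 had the highest value (0.79 ± 0.40), with 155, 237, 185 and 187 CPM at 5 MPa and overlapping groups, and was at 0.43 after summing with copies. Rpl22l1, a paralogue of Rpl22, had 42.1, 40.4, 52.8 and 51.5 CPM against 46.8, 29.2, 27.8 and 22.5 CPM in controls (0.73 ± 0.25), where control replicate 1 overlapped. Rps27l was at 0.72 ± 0.22.

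Rps6, the 40S protein that S6 kinases phosphorylate, had 345, 369.9, 401 and 381 CPM at 5 MPa and 347, 344, 274 and 284 CPM in controls (0.29 ± 0.13). The groups overlapped by the lowest library at 5 MPa. The genes at the lower end of the core were Rpl10 (-0.17 ± 0.40), which joins the large subunit last, and Rpl17 (0.07 ± 0.28), and Rps19bp1 was at 0.06 ± 0.20. Summed with its copies Rpl10 turned to 0.20 (adjusted p = 1). Rpl39l, a paralogue known from testis, had at most 0.571 CPM in any metatarsal library and a negative value (-0.61 ± 0.81).

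At 50 MPa the metatarsals again had 82 of 84 positive values, with a median of 0.26 against 0.00 for all genes. None was called by edgeR or DESeq2 (0% of all genes by edgeR). In edgeR 3 of the 84 had an unadjusted p below 0.05 (Rpl30, Rps12 and Rps27l), against 873 of all 21283 genes. The groups did not overlap for 12 genes, each of them higher, against 2.38% of all genes, and for 0 in the other direction, against 2.11%. Both metatarsal comparisons share their 4 control libraries, so the positive values at 5 and 50 MPa do not stand for separate observations. Summed with copies, the median was 0.32 at 5 MPa (83 of 84 positive) and 0.22 at 50 MPa (82 of 84 positive). Within run 2 the median was 0.32 at 5 MPa and 0.20 at 50 MPa, and when each library was left out in turn its range was 0.29 to 0.43 at the lower pressure and 0.18 to 0.33 at the higher.

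Rps27l had 24.9, 24.7, 32.2 and 34.7 CPM at 50 MPa and 22.7, 17.8, 16.3 and 16.4 CPM in controls (log2 fold change 0.74 ± 0.22, adjusted p = 1), and the groups did not overlap. Rps27 (0.78 ± 0.73) and Rpl5 (0.74 ± 0.40) were the other high values, both with overlapping groups, and Rpl5 was at 0.30 after summing with copies. Rps12, which lies in the head of the small subunit, had 299, 326, 396 and 603 CPM against 247 to 306 CPM (0.69 ± 0.30). Replicate 4, the unstranded library of run 1, was the highest of the 4 for Rps12, for Rpl19 (402 CPM, others 234 to 280.5) and for Rpsa (838 CPM, others 497 to 573). Among core genes Rpl10 was the lowest (-0.35 ± 0.40), followed by Rpl36 (0.00 ± 0.23) and Rpl9 (0.02 ± 0.22). Summed with its copies Rpl10 was at -0.01.

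The summed level of ribosomal protein genes was 15296 to 18667 CPM in metatarsal controls, 19522 to 22014 CPM at 5 MPa and 17966 to 25659 CPM at 50 MPa. The 5 MPa libraries did not overlap with the controls, and the 50 MPa libraries did. In the same libraries the most abundant gene took 21.5% to 26.6% of all counts in controls and 8.62% to 16.6% under pressure. Of 8 skeletal muscle markers 6 had a negative log2 fold change at 5 MPa (median -0.14) and 8 at 50 MPa (median -0.52), none of them called, and their summed level was 986 to 2423 CPM in controls, 1157 to 1919.5 CPM at 5 MPa and 420.3 to 1592 CPM at 50 MPa. The part of these markers, of the most abundant gene, of the protein-coding share and of the run in the positive values was not tested.

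**Figure D4:**
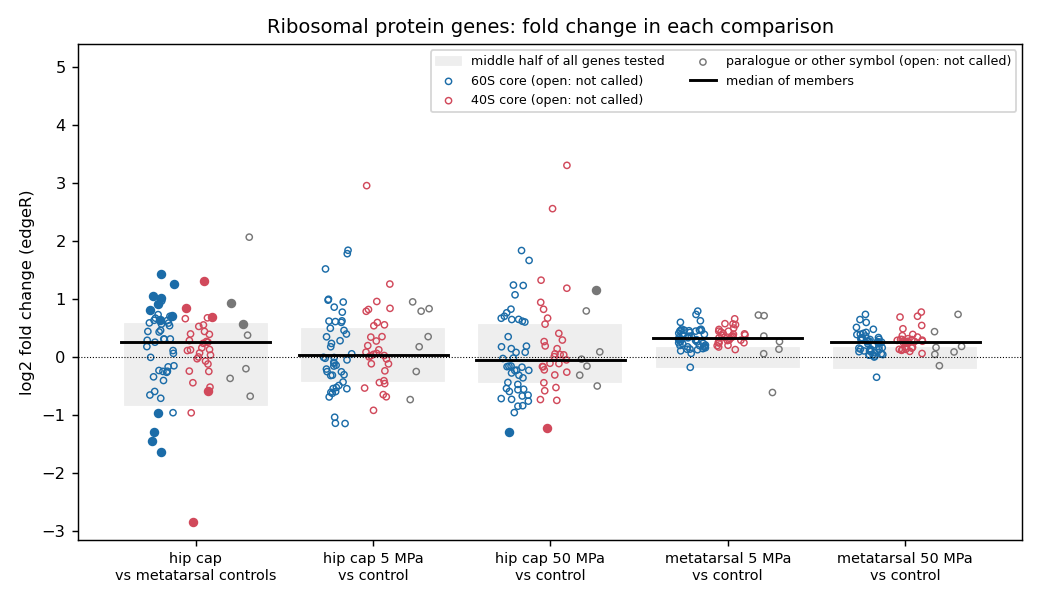
Log2 fold change (edgeR) of each ribosomal protein gene tested in the 5 comparisons, as open points where not called and filled points where called, with the median as a line and the middle range of all genes tested as a grey box. The members spread from -2.84 to 2.07 between the controls, and 82 of 84 lie above 0 in metatarsals at both pressures.

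The other lists give a scale for the metatarsal values. The median log2 fold change of the other TOP messenger RNAs was 0.23 at 5 MPa (21 of 21 positive) and 0.14 at 50 MPa (20 of 21 positive). For mitochondrial ribosomal proteins it was 0.13 and 0.15, with 62 and 61 of 78 positive. Ribosome assembly factors were at 0.04 and 0.09, with 25 and 28 of 40 positive, and genes of mTOR and the S6 kinases at -0.07 and -0.03, with 7 and 8 of 18 positive. Fau was at 0.27 under 5 MPa and at 0.21 under 50 MPa. Single values of these lists ran from -0.49 (Ddit4, an inhibitor of mTOR, at 50 MPa) to 0.55 (Mrpl20 at 5 MPa), and none was called.

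**Figure D5:**
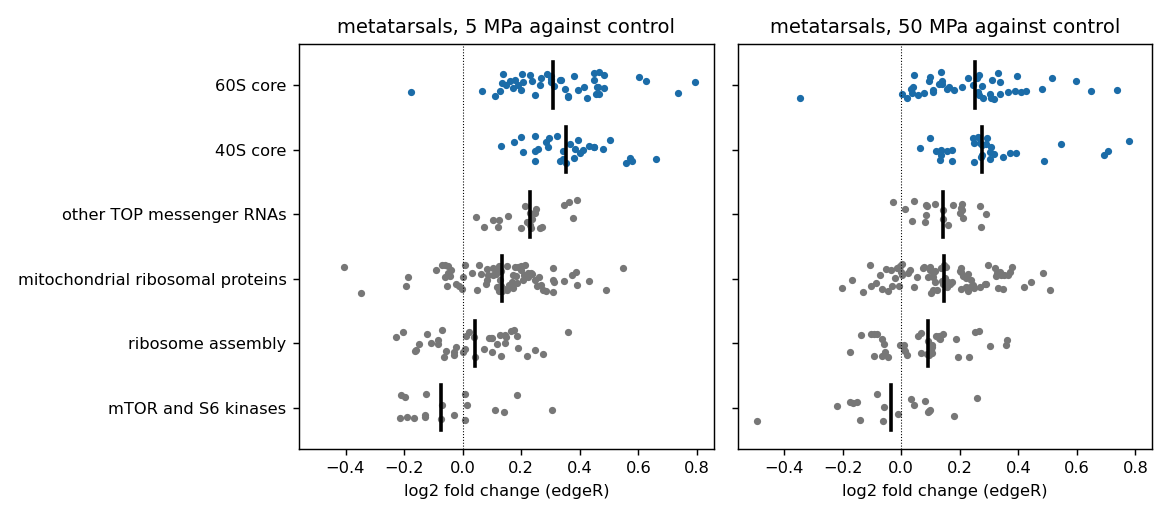
Log2 fold change (edgeR) of single genes in metatarsals at 5 MPa (left) and 50 MPa (right), by gene list, with the median of each list as a black bar. Core ribosomal proteins have the highest medians (0.31 and 0.35 at 5 MPa, 0.25 and 0.28 at 50 MPa), and genes of mTOR and the S6 kinases have medians of -0.07 and -0.03.

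The difference between the tissues in their response was tested as an interaction. At 5 MPa 0 ribosomal protein genes were called by edgeR (0.0188% of all genes, with 0.0094% in each direction), and DESeq2 called 2 (Rpl19 and Rpsa). In edgeR 23 of the 84 genes tested had an unadjusted p below 0.05, against 2543 of all 21283 genes. Without hip cap control replicate 2, 9 genes were called. The median was -0.25, where a negative value means a lower response in hip caps. At 50 MPa Rpl19 (-1.43 ± 0.30) and Rpsa (-1.38 ± 0.29) were called, both at an adjusted p of 0.048 and against 0.179% of all genes in this direction (0.263% in the other, 0.442% in both), and DESeq2 called 5. The median was -0.27, and 0.06 for all genes. Both calls were lost with all 24 libraries and without batch terms, and 25 genes were called without hip cap 50 MPa replicate 4, 13 without hip cap control replicate 2 and 3 without hip cap 5 MPa replicate 3. Leaving out any of the 12 metatarsal libraries, hip cap control replicate 3, hip cap 5 MPa replicates 1 or 2, or hip cap 50 MPa replicates 1 or 3 left 0 calls. The share of all genes called by DESeq2 or with libraries left out is not given here. Those counts are therefore no result about ribosomal protein genes alone. The interaction test uses the same hip cap and metatarsal controls as the comparisons above.

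Members were also followed by their roles. The stalk of the large subunit, which recruits translation factors, is made of Rplp0, Rplp1 and Rplp2. Rplp0 had 1301, 697 and 1237 CPM in hip cap controls, 449 to 512 CPM in metatarsal controls and 561 to 734 CPM in hip caps at 5 MPa. It was called between the controls (1.05 ± 0.25, adjusted p = 0.0034) and had log2 fold changes of -0.69 ± 0.28 and -0.66 ± 0.26 in hip caps under the lower and the higher pressure, neither of them called. Rplp2 had 475, 234 and 561 CPM in hip cap controls and 150.1 to 190.4 CPM in metatarsal controls (1.03 ± 0.29, adjusted p = 0.010). Rplp1 had 354, 522 and 440.4 CPM against 210.5 to 235 CPM, with groups that did not overlap and an adjusted p of 0.055 (0.70 ± 0.27). Of the stalk, Rplp1 was the protein for which hip cap control replicate 2 was the highest and not the lowest control.

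Rpl5 and Rpl11 bind 5S ribosomal RNA and, outside the ribosome, the p53 regulator Mdm2. Rpl11 was called higher in hip cap controls (0.82 ± 0.28, adjusted p = 0.029), with 501.98, 333 and 436 CPM against 185 to 272 CPM, while Rpl5 was called lower before its copies were added. In hip caps at 50 MPa Rpl11 was at -0.67 ± 0.28, with 259, 226 and 444 CPM, and not called. Rps19, Rps24 and Rps26, which are mutated in Diamond-Blackfan anaemia, and Rps14, a 40S protein lost in a myelodysplastic syndrome, were not called by edgeR in any comparison, while DESeq2 called Rps24 between the controls. Between the controls they were at 0.39, 0.66, -0.07 and 0.44, and in metatarsals at 5 MPa at 0.29, 0.34, 0.25 and 0.37. For Rps19 the groups did not overlap in metatarsals, with 185 to 219 CPM in controls, 220.3 to 270.4 CPM at 5 MPa and 235 to 287 CPM at 50 MPa. Rpl38, known for its part in the translation of Hox messenger RNAs, had 0.48 ± 0.28 at both pressures in metatarsals, with overlapping groups.

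Most paralogues were low beside their core partners, except Rps27rt, which lay above Rps27 in some libraries and below it in others. Rpl39l had 0.814 to 2.42 CPM in hip caps and 0 to 0.571 CPM in metatarsals, while its partner Rpl39 had 84.4 to 401 CPM, and its log2 fold change between the controls was 2.07 ± 1.13 (adjusted p = 0.17). Rpl3l, which replaces Rpl3 in striated muscle, had 17 counts over all 22 libraries, and Rpl10l, a paralogue used in male germ cells, had 3. Rpl7l1 was called higher in hip cap controls (0.58 ± 0.18, adjusted p = 0.017), with 57.5, 47.5 and 46.7 CPM against 29.3 to 38.6 CPM, and its partner Rpl7 was not (0.44 ± 0.20, adjusted p = 0.11). Rps19bp1, which binds Rps19 and is no ribosomal protein, had 9.50, 4.92 and 9.70 CPM against 3.06 to 5.18 CPM (0.93 ± 0.29, adjusted p = 0.019), and its groups overlapped. Rpl36al was not called by edgeR in any comparison without copies, and its groups did not overlap in metatarsals at 5 MPa (36.0, 39.0, 42.3 and 38.3 CPM against 27.4 to 35.2 CPM).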

How the data were processed

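The authors trimmed the reads with Trim Galore 0.6.5, quantified transcripts with kallisto and used tximport to obtain genes, and the deposited values are estimated counts without normalization, which were rounded here. The processing notes also name GRCm39 and DESeq2. Names came from GENCODE M21 (GRCm38), which matched 48897 of 52178 genes. The members and gene lists were chosen with earlier results of these data known. Named genes are the 3 highest and 3 lowest of each comparison with a mean of at least 1 CPM, those called under pressure, and fixed roles, paralogues, levels per length and pseudogene shares, with Rpl14, Rpl15, Rpl35 and Rps13 added after their values were seen.

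Genes kept by filterByExpr were scaled by TMM and tested with edgeR 4.0.16 (quasi-likelihood, robust, two-sided) in 22 libraries, with group, run and library type as terms and Benjamini-Hochberg adjustment over 21283 genes at 0.05. Each sample was its own pool of explants, and p-values measure the spread between these samples. Levels used the shortest APPRIS principal transcript. Alternatives were DESeq2 1.42.0, other scaling, filters, terms, libraries and, chosen after seeing the data, summing with copies by sequence and fitting each tissue alone. The fit was tested on simulated data. No pair of replicates agreed within sampling noise (at least 9.16 chi-square units per gene). Equal replicate numbers did not pair the libraries (residual correlations from -0.0988 to 0.141). 1 gene outside the naming rule is not reported here.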

Additional observations from a re-analysis of the deposited data

Results flagged for a closer look

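Among 204 sets of 4 library values of named genes, 8 held a library far from the other 3, where chance alone flags about 1 in 20. In hip caps at 5 MPa Rpl37 had 117.5 CPM in replicate 3 (others 92.1 to 93.7). In metatarsal controls Rps27rt had 215.0 CPM in replicate 1 (others 169 to 176). In metatarsals at 5 MPa Rpl37 had 80.9 CPM in replicate 2 (others 98.8 to 102). In metatarsals at 50 MPa Rpl5 had 215.4 CPM (others 149 to 154) and Rps27 83.99 CPM (others 57.0 to 57.6) in replicate 3. Replicate 4 of the same group, the unstranded library of run 1, had 320.2 CPM of Rps27a (others 209.5 to 228), 475.8 CPM of Rplp1 (others 244 to 268) and 412.0 CPM of Rpl3 (others 296 to 315).

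The interaction test in edgeR called 2 genes for a different response to 50 MPa in hip caps and metatarsals. The difference in log2 fold change was -1.43 for Rpl19 and -1.38 for Rpsa, both at an adjusted p of 0.048. Both calls were lost with all 24 libraries and without batch terms. Leaving out single libraries gave from 0 to 25 calls, so the 2 calls depend on the libraries used. The share of all genes called in those fits is not given here.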

How the results depend on the processing

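Between controls, where 19 genes were called, 40 were called with library sizes alone (median -0.66, against -0.96 for all genes), 9 with all 24 libraries, 42 without batch terms and 36 with library type only. In hip caps at 5 MPa (0 called) the counts were 6 with DESeq2, 2 with library sizes alone (median 0.58, all genes 0.51), 25 without batch terms, 8 with library type only and 1 with a replicate block. At 50 MPa (3 called) they were 14 with DESeq2, 5 with protein-coding factors, 13 with at least 10 counts in every library, 5 without batch terms, 8 with a replicate block, and 0 with library sizes alone, all 24 libraries (median -0.40), the GC trend removed, run 1 only or hip caps alone. In metatarsals at 5 MPa 1 was called in run 2 only and in metatarsals alone. The interaction at 5 MPa gave 2 with DESeq2, 1 without batch terms and 1 with library type only, and at 50 MPa 5 with DESeq2 and 0 with library sizes alone, all 24 libraries, no batch terms, or GC or length trends removed. Replicate numbers did not pair the libraries, so the replicate block is no pairing. The fit in run 1 only held the same hip caps at 0 and 50 MPa, without the other groups and the library type term. The cause of these moves was not tested. Shares of all genes called are not given for DESeq2, for the other settings or for libraries left out. Counts from these fits are therefore no result about ribosomal protein genes alone.

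Leaving out each library in turn, the counts ran from 4 to 38 (controls), 0 to 12 and 0 to 26 (hip caps at 5 and 50 MPa), 0 to 0 (metatarsals at both), and 0 to 9 and 0 to 25 (interactions). The medians ran from 0.19 to 0.30, -0.12 to 0.19, -0.42 to 0.0873, 0.29 to 0.43 and 0.18 to 0.33. Library sizes alone reversed Rpl11 (-0.0859), Rps6 (-0.89), Rpl7l1 (-0.33), Rpl3 (-0.27) and Rpl31 (-0.84) between controls, where all genes shifted with them, and named pseudogenes or copies reversed Rps13 (0.62 with each).

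Depth limits Rpl3l, Rpl10l and Rpl39l, and reads shared with copies limit the 12 genes with over 10% of counts there. They also limit Rps27a, Rps13 and Rpl15, whose calls between the controls were lost or reversed when copies were added. The run of each library is uncertain, and the hip cap groups at 0 and 5 MPa were not sequenced in the same run. In hip caps at 0 and 50 MPa library type and pressure largely coincide.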

Other observations

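The libraries that the study left out had the following levels of ribosomal protein genes. Hip cap control replicate 4 had 1.64% of its counts on them, close to the other controls, with 6.95 counts on copies per 100 counts on the genes. On the scale of all 24 libraries it had 711 CPM of Rpsa, 368 CPM of Rpl19, 285 CPM of Rps27a and 141 CPM of Rpl5. Hip cap 50 MPa replicate 2 had 0.569% of its counts on ribosomal protein genes, the lowest of the 24 libraries, with 16.4 counts on copies per 100 counts on the genes, the highest.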
